A study of Homo sapiens with 6 samples.

Results

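The genes described here are 8 apolipoprotein genes (APOA1, APOA2, APOB, APOC1, APOC3, APOE, APOH and APOM) and MTTP, whose product loads lipid onto the APOB protein. Every probe set annotated to exactly 1 of these 9 symbols was taken, which gave 19 of the 54613 probe sets tested and 9 of the 19775 genes with a probe set of their own. The genes were chosen with their levels and their differences on these arrays already known, so these values are a description. The RNA came from MHCC97H, an established human hepatocellular carcinoma (HCC) cell line. All 6 samples were of cells heated to 47 °C, a sublethal heat treatment, and the surviving residual cells were kept for 24 h with 100 ng/mL recombinant POSTN (3 samples) or with 0 ng/mL (control, 3 samples). POSTN, or periostin, is a secreted matrix protein. The design has no unheated cells, and every sample is of the same line, so differences between lines and effects of the heating itself cannot be seen here.

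Apolipoproteins are the protein part of the particles that carry cholesterol and triglyceride in blood, and hepatocytes make most of them. MTTP moves lipid onto newly made APOB in the endoplasmic reticulum, which starts a very-low-density lipoprotein (VLDL). APOA1 and APOA2 are the main structural proteins of high-density lipoprotein (HDL), and the small exchangeable apolipoproteins pass between particles. Their transcription in liver depends on liver-enriched factors such as C/EBP and on nuclear receptors.

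Affymetrix U133 Plus 2.0 arrays were used, 1 per sample, and the deposited values are log2 MAS 5.0 signals. A log2 signal of 5.98 was used as the background level, the 95th percentile of the mean signals of 107 olfactory receptor probe sets, and 47.7% to 49.7% of the probe sets on an array passed it. Below this level signals of replicate arrays differ widely, and the median SD within a condition was 1.29 at a mean signal up to 4 and 0.13 above 10. The labels number the arrays 1, 2 and 3 in each condition, and the arrays numbered 1 stood apart from the other 4. With condition in the limma model, 3069 probe sets, or 5.62% of those tested, differed between them at an adjusted p under 0.05, and 0 did when the prior variance was not allowed to follow the mean signal. The count was 718 without control replicate 1, 657 without POSTN replicate 1 and 1869 without POSTN replicate 3. The comparison of number 1 with 2 and 3 was set up with this separation already known. Its calls and p-values are therefore a description of these arrays. Neither the labels nor the methods say what the number stands for, so it is used here only as a number. It is also not stated whether the 3 samples per condition were grown as separate cultures, and p-values then measure only the spread between these arrays.

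Of the genes' own regulatory sequence, the 250 bases before the start are shown for the 3 genes whose signals were higher on both arrays numbered 1 (APOH, MTTP and APOC1). RefSeq (GRCh38.p14) had promoter entries for 6 of the 9 genes and none was read for APOA1, APOB and APOC3. Of 2 starts listed for MTTP, the downstream one is shown because it holds the matches. The windows lie at chr17:66229416-66229665 on the minus strand (APOH), chr4:99574574-99574823 on the plus strand (MTTP) and chr19:44914422-44914671 on the plus strand (APOC1). Capitals mark matches, on either strand, to AGGTCA (a nuclear receptor half-site) and TATAAA (the element bound by TBP in core promoters). The motifs and the window were chosen after the sequences had been read.
APOH: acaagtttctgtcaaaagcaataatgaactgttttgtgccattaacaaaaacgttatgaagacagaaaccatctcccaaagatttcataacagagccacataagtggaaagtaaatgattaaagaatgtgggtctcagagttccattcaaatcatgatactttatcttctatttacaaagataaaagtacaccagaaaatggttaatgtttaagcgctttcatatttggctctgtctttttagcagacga
MTTP: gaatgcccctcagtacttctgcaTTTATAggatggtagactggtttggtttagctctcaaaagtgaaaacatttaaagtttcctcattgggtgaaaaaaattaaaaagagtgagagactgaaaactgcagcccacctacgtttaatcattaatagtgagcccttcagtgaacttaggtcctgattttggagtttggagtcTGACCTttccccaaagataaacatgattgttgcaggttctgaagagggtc
APOC1: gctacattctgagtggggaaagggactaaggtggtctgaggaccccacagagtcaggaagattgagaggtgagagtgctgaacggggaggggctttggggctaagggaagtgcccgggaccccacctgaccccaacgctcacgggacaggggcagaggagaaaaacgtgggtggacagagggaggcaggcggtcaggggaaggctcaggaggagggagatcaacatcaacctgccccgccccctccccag
The MTTP window held AGGTCA on the minus strand at 50 to 45 bases before the start, and TATAAA on the minus strand at 227 to 222 bases. The APOH and APOC1 windows held neither motif, nor did those of APOA2, APOE, APOM and the upstream start of MTTP. Among the upstream windows of all 35116 RefSeq starts, 12.1% held AGGTCA and 10.7% held TATAAA. These matches describe the letters only, and no binding was measured.

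APOA1, APOA2 and APOC3 were not separated from background in these cells. APOA1, the main protein of HDL, was read by 3 probe sets, and none passed the background level on any array. Its brightest, 217073_x_at, had log2 signals of 4.97, 3.0 and 2.80 on control arrays 1 to 3 and of 5.68, 2.73 and 5.56 on POSTN arrays 1 to 3. Both conditions spread over more than 2 log2 units and overlapped. APOA2, its smaller partner, gave 2.72, 2.77 and 5.60 in control cells and 2.76, 3.0 and 5.10 with POSTN on 219465_at. Here the arrays numbered 3 were the high ones in both conditions, still under the background level. APOC3, an inhibitor of lipoprotein lipase that neighbours APOA1 in the genome, was dimmer than the background level on all arrays as well, with signals from 1.91 to 3.72 on 205820_s_at and from 0.90 to 4.43 on 231587_at. For these 3 genes the array gives no usable level, and a low transcript cannot be told from an absent one.

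The VLDL pair was close to the background level. APOB, the structural protein of VLDL and LDL, had log2 signals of 5.92, 6.27 and 6.64 in control cells and of 5.26, 6.07 and 5.99 with POSTN on 205108_s_at, above background on 4 arrays, while its other probe set, 223579_s_at, was above it on none. MTTP gave 7.19, 6.15 and 6.41 in control cells and 7.61, 5.85 and 5.73 with POSTN on its single probe set, 205675_at. The 2 highest MTTP signals were those of the arrays numbered 1, and the 2 lowest were POSTN 2 and POSTN 3, under the background level.

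APOC1 and APOH were far above background on every array. APOC1, a small exchangeable apolipoprotein, had log2 signals of 11.16, 10.40 and 10.32 in control cells and of 11.27, 10.48 and 10.47 with POSTN on 204416_x_at. Its second probe set, 213553_x_at, gave 9.87, 9.13 and 9.30 in control cells and 10.32, 9.30 and 9.16 with POSTN. On both probe sets the 2 arrays numbered 1 were the highest, and the other 4 lay within 0.17 log2 units of each other on either. Both names end in _x_at, which marks probes that may also read a similar sequence, and APOC1 has a pseudogene close by. APOH (β2-glycoprotein I), a phospholipid-binding plasma protein that also rides on lipoproteins, had 12.64, 10.86 and 11.17 in control cells and 12.69, 10.99 and 11.04 with POSTN on 205216_s_at. The arrays numbered 1 were again the highest in both conditions. On 231359_at, APOH gave 8.71, 7.86 and 8.13 in control cells and 9.18, 8.13 and 8.70 with POSTN, where POSTN 3 came within 0.011 log2 units of control 1.

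APOE and APOM lay just above background. APOE, the ligand by which remnant particles are taken up, is the direct neighbour of APOC1 and had log2 signals of 6.39, 6.35 and 6.12 in control cells and of 7.13, 6.72 and 7.10 with POSTN on 212884_x_at. The lowest POSTN array exceeded the highest control array. On 203381_s_at the order was the same, with 5.66, 5.94 and 3.37 in control cells and 6.39, 6.33 and 6.04 with POSTN, whereas 203382_s_at gave 5.23, 5.72 and 7.05 in control cells and 3.92, 4.85 and 5.28 with POSTN. There the POSTN mean was the lower one and the conditions overlapped. APOM, a lipocalin of HDL that carries sphingosine-1-phosphate, gave 7.27, 6.63 and 6.66 in control cells and 6.25, 6.67 and 6.93 with POSTN on 205682_x_at. Control 1 was the highest of these and POSTN 1 the lowest.

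**Figure D1:**
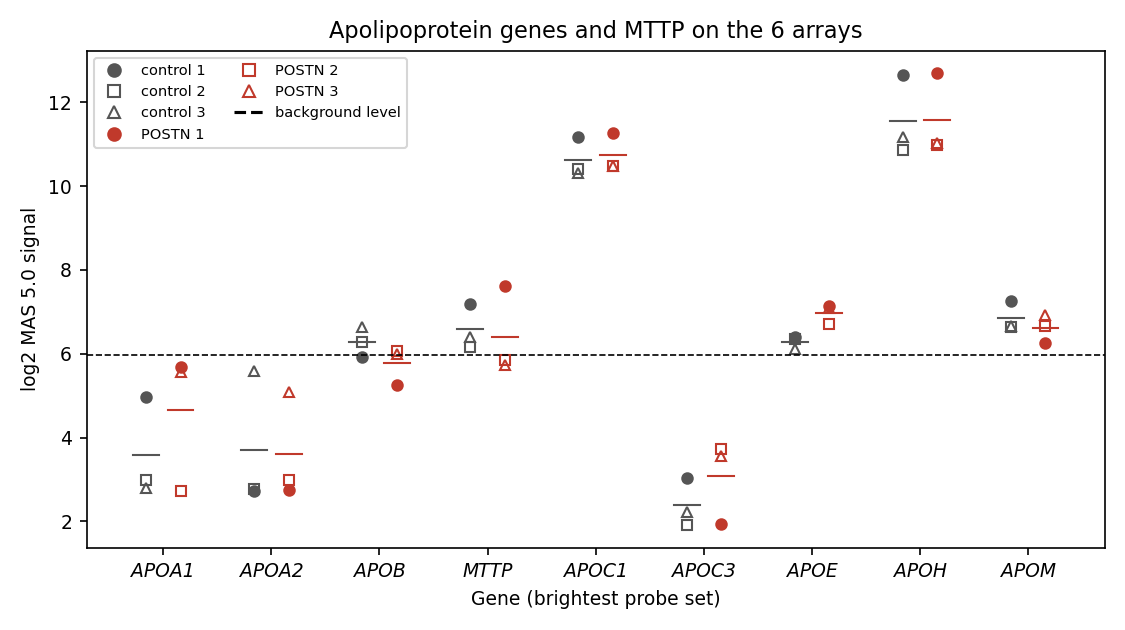
Log2 MAS 5.0 signal (y axis) of the brightest probe set of each gene (x axis) on the 6 arrays, grey for control and red for POSTN, with the replicate number as the symbol and a short line at each condition's mean (n = 3). Dashes mark the background level (5.98); APOC1, APOH and MTTP have both filled circles (arrays numbered 1) above the open symbols, and APOA1, APOA2 and APOC3 lie under the line on all arrays.

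Exposure to POSTN was compared with control over the whole array to ask which transcripts the protein changed. For these genes no difference passed the test. Of the 19 probe sets, 13 were higher and 6 were lower with POSTN, and limma called 0 of them at an adjusted p under 0.05 (0% of all 54613 probe sets were called), with an adjusted p of 1.0 for each. At an unadjusted p under 0.05 limma counted 1 of 19 (3.02% of all probe sets), and the methods' t-test also counted 1 (3.62% of all) and called 0 after Benjamini-Hochberg adjustment. In a fit with a replicate block, 3 of 19 had an unadjusted p under 0.05 (4.76% of all) and 0 had an adjusted p under 0.05. They were APOH 231359_at (unadjusted p = 0.0085 in this limma fit) and APOE 212884_x_at, both higher with POSTN, and APOE 203382_s_at, which was lower. The study's own thresholds, an unadjusted p under 0.05 with a fold change over 2 or under 0.5, were met by 0 of 19 in limma (2.56% of all) and by 0 of 19 with the methods' t-test (2.09% of all). The conditions did not overlap on 2 of the 19 probe sets, both of APOE, against 7.94% of all probe sets.

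APOC1 and APOH, both above background on every array, had nearly the same mean signal in both conditions on their brightest probe sets. The mean log2 signal of APOC1 was 10.62 ± 0.47 (SD, n = 3) without POSTN and 10.74 ± 0.46 (SD, n = 3) after exposure. The difference was 0.12 (95% confidence interval -0.45 to 0.69), and array by array POSTN exceeded the control of its number by 0.11, 0.085 and 0.16. On the dimmer APOC1 probe set, 213553_x_at, the differences by number were 0.45, 0.17 and -0.14, which did not share a sign. APOH averaged 11.56 ± 0.95 (SD, n = 3) and, with POSTN, 11.57 ± 0.96 (SD, n = 3), a difference of 0.015 (95% confidence interval -1.10 to 1.13). The standard errors were 0.26 for APOC1 and 0.50 for APOH, and 0.070 and 0.068 in the fit with a replicate block. Without the arrays numbered 1 the differences were 0.12 and 0.0026. When 1 array numbered 1 was left out alone, the 2 conditions became unbalanced and the APOH difference moved to 0.56 (without control replicate 1) or -0.54 (without POSTN replicate 1), with adjusted p-values of 0.99 and 1.0 from limma. The dimmer APOH probe set, 231359_at, differed by 0.44 (95% confidence interval -0.20 to 1.08) and was 0.47, 0.28 and 0.57 higher with POSTN by number.

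APOE had the lowest unadjusted p-value among the brightest probe sets, and its probe sets differed in sign. On 212884_x_at control arrays averaged 6.28 ± 0.15 (SD, n = 3) and POSTN arrays 6.98 ± 0.23 (SD, n = 3). That gave a log2 difference of 0.70 (95% confidence interval 0.024 to 1.37), or 1.62-fold, with an adjusted p of 1.0 from limma. On 203381_s_at the difference was 1.26 (95% confidence interval -0.25 to 2.77) and on 203382_s_at it was -1.32 (95% confidence interval -2.76 to 0.13). With 50 added to each linear signal before the log, the difference on 212884_x_at was 0.46, and over the other alternatives it ranged up to 0.83. The signals of the last 2 probe sets lie around background, where replicate arrays spread widely (3.37 to 5.94 among the controls of 203381_s_at).

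The intervals of all probe sets of the other members included 0. APOB differed by -0.50 (95% confidence interval -1.45 to 0.45), lower with POSTN in all 3 same-numbered pairs and around the background level in both conditions. MTTP differed by -0.19 (95% confidence interval -1.37 to 0.99) and APOM by -0.24 (95% confidence interval -0.97 to 0.50), and the sign of APOM turned to 0.15 without the arrays numbered 1. The dim probe sets of APOA1, APOA2 and APOC3 had differences from -0.077 to 2.20 with intervals from -2.47 at the lowest to 4.46 at the highest, all from signals under background. The intervals leave room for a change of over 2-fold in most of these genes, so a missed threshold does not show that POSTN left them alone.

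**Figure D2:**
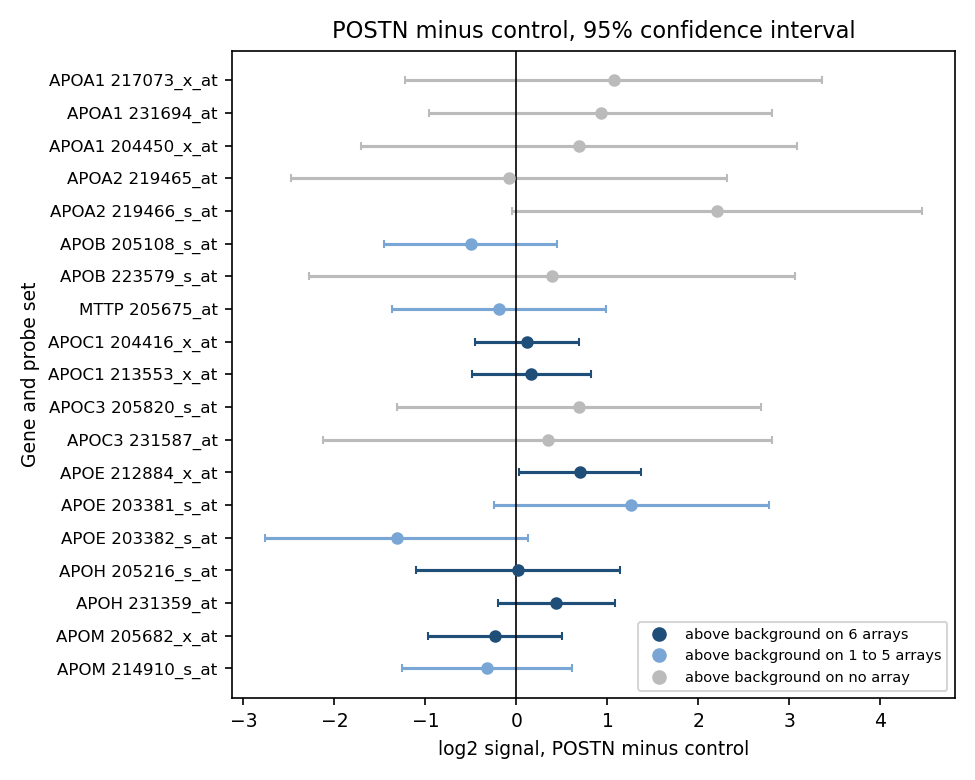
Log2 signal of POSTN minus control arrays (x axis) for each of the 19 probe sets (y axis), with 95% confidence intervals from limma (n = 3 per condition) and darker points for probe sets above background on more arrays. All intervals cross 0 except that of APOE 212884_x_at (0.024 to 1.37), and the 3 APOE probe sets fall on both sides of 0.

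The same values were then set out by replicate number, within each condition. APOH, APOC1 and MTTP were higher on both arrays numbered 1 than on all 4 others, and APOB was lower. APOH 205216_s_at had a mean log2 signal of 12.66 on the arrays numbered 1 and 11.01 ± 0.13 (SD, n = 4) on the others, a difference of 1.65 or 3.14-fold. It was 1.63 within control arrays and 1.67 within POSTN arrays. The other APOH probe set, 231359_at, also above background on all 6 arrays, differed by only 0.74 (1.67-fold). The gap between its groups of arrays was 0.011 log2 units. APOC1 204416_x_at differed by 0.80 (1.74-fold), at 0.81 within control and 0.80 within POSTN arrays, and 213553_x_at by 0.87. MTTP differed by 1.37 (2.58-fold), from 7.40 on the arrays numbered 1 to 6.03 ± 0.31 (SD, n = 4), and here the conditions were less alike, at 0.91 within control and 1.82 within POSTN arrays. For MTTP the size rests in part on signals under the background level, and with 50 added to each linear signal it was 0.92.

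APOB 205108_s_at was 0.65 lower on the arrays numbered 1, at -0.53 within control and -0.77 within POSTN arrays, so the APOB and MTTP transcripts, whose products meet in VLDL assembly, stood on opposite sides. Both APOB signals on the arrays numbered 1 were under the background level, and with 50 added to each linear signal the APOB difference was -0.35. The gap between the groups of arrays was 0.074 log2 units for APOB and 0.79 for MTTP. APOE, next to APOC1 on the chromosome, differed by 0.19 with overlapping arrays (0.16 within control and 0.22 within POSTN arrays). APOM differed by 0.039, the mean of a higher control 1 (0.63) and a lower POSTN 1 (-0.55). The probe sets of APOA1, APOA2 and APOC3 differed by -1.37 to 1.80 under the background level, and the 3 APOA1 probe sets did not share a sign.

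Counted over all 19 probe sets, 5 were higher on both arrays numbered 1 without overlap (both of APOC1, both of APOH and that of MTTP), 2 were lower (APOB 205108_s_at and APOA2 219465_at) and 12 overlapped. Over all probe sets of the array 13.6% were higher and 12.7% were lower in this way. Above the background level these shares were 21.2% and 18.6%, so that an order of this kind was common on these arrays. The members were chosen with this pattern known, and no test is given for it. Bulk RNA cannot tell more transcript per cell from more cells that hold it. Since the meaning of the number is not stated, a source outside the cells cannot be told apart from these either.

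**Figure D3:**
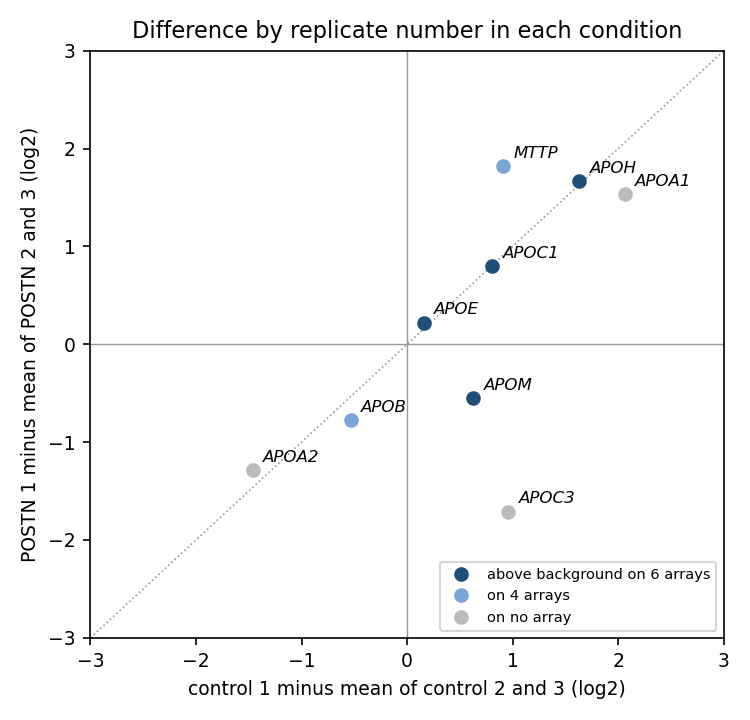
Log2 difference of the array numbered 1 from the mean of numbers 2 and 3, within control arrays (x axis) and within POSTN arrays (y axis), for the brightest probe set of each gene. The dotted line marks equal differences; APOH (1.63 and 1.67) and APOC1 (0.81 and 0.80) lie on it, APOM and APOC3 have opposite signs in the conditions, and grey points are under background on all arrays.

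Genes that act with the members were taken from 5 lists chosen by function (other apolipoproteins, assembly and secretion, receptors and uptake, plasma lipid remodelling and sterol export, and transcription factors of apolipoprotein genes). Of 128 genes 111 had a probe set of their own, and 77 had a mean signal above background. POSTN minus control called 0 of the 111 in limma, 49 were higher and 62 were lower, 0 had an unadjusted p under 0.05, and the median difference was -0.026 beside 0.00015 over all genes. Between replicate numbers 14 were called higher and 7 were called lower on the arrays numbered 1, where 4.64% and 4.31% of all genes were called, and 7.90% and 7.19% of genes above background. The split by number was chosen with the separation of these arrays known, so these calls and the adjusted p-values below are descriptive. The calls rest on a prior variance that follows the signal, since without it limma called 0 of them and 0 probe sets of the array. Leaving out control replicate 1 left 4 higher and 3 lower calls, and leaving out POSTN replicate 1 left 3 and 3. Without POSTN replicate 2 there were 8 and 4, and without control replicate 3 or POSTN replicate 3 the lower calls were 4.

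Transcription factors of the apolipoprotein genes were mostly higher on the arrays numbered 1. Of 28 measured, 22 were higher and 6 were lower there, with a median log2 difference of 0.37 beside -0.0018 over all genes, and 6 rose past the threshold and 0 fell. CEBPA, the C/EBP factor of differentiated hepatocytes, had log2 signals of 11.97 and 11.97 on the arrays numbered 1 and from 10.64 to 10.84 on the others, a difference of 1.23 (standard error 0.082, adjusted p = 1.3e-05 from limma). FOXA1, a pioneer factor of liver, was 0.85 higher (standard error 0.19, adjusted p = 0.024). NR1H3 (LXRα), a sterol-sensing receptor, was 0.79 higher (standard error 0.13, adjusted p = 0.0046). The other 6 factors of the list were not analysed here.

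Calls in the other lists were few. Among other apolipoproteins 2 of 18 rose on the arrays numbered 1 and 0 fell. APOL1, which binds HDL, was at 11.43 and 11.46 there and from 10.26 to 10.47 on the others, a difference of 1.08 (standard error 0.082, adjusted p = 2.8e-05), and APOL2 differed by 0.90 (adjusted p = 0.0041). In assembly and secretion 4 of 29 rose and 3 fell. DGAT1, which makes triglyceride, was 0.52 higher, CES1, a lipid hydrolase, 0.41 higher, and SEC13, a coat protein of export vesicles, 0.27 higher. The fourth was PLIN2, a lipid droplet protein, at 0.26. The vesicle proteins SAR1A and SEC31A were 0.32 and 0.26 lower in number 1 (log2 differences of -0.32 and -0.26), and SURF4, a cargo receptor, differed by -0.25.

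In receptors and uptake 1 of 17 rose and 1 fell. PDZK1, a scaffold of the HDL receptor, was at 9.90 and 9.49 on the arrays numbered 1 and from 8.01 to 8.18 on the others, a difference of 1.58 (standard error 0.15, adjusted p = 0.00012). CD36, a fatty acid and lipoprotein receptor, differed by -0.97 (standard error 0.088, adjusted p = 9.7e-05). In remodelling and sterol export 1 of 19 rose and 3 fell. ANGPTL4, an inhibitor of lipoprotein lipase, was 0.77 higher (adjusted p = 0.023). ABCA1, the pump that loads cholesterol onto APOA1, was at 7.99 and 8.54 on the arrays numbered 1 and from 9.53 to 10.19 on the others, a difference of -1.55 (standard error 0.19, adjusted p = 0.00075). NCEH1 (-0.63), a cholesterol ester hydrolase, and NPC1 (-0.47), a lysosomal cholesterol transporter, were also called lower. All adjusted p-values here are limma's over 54613 probe sets.

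**Figure D4:**
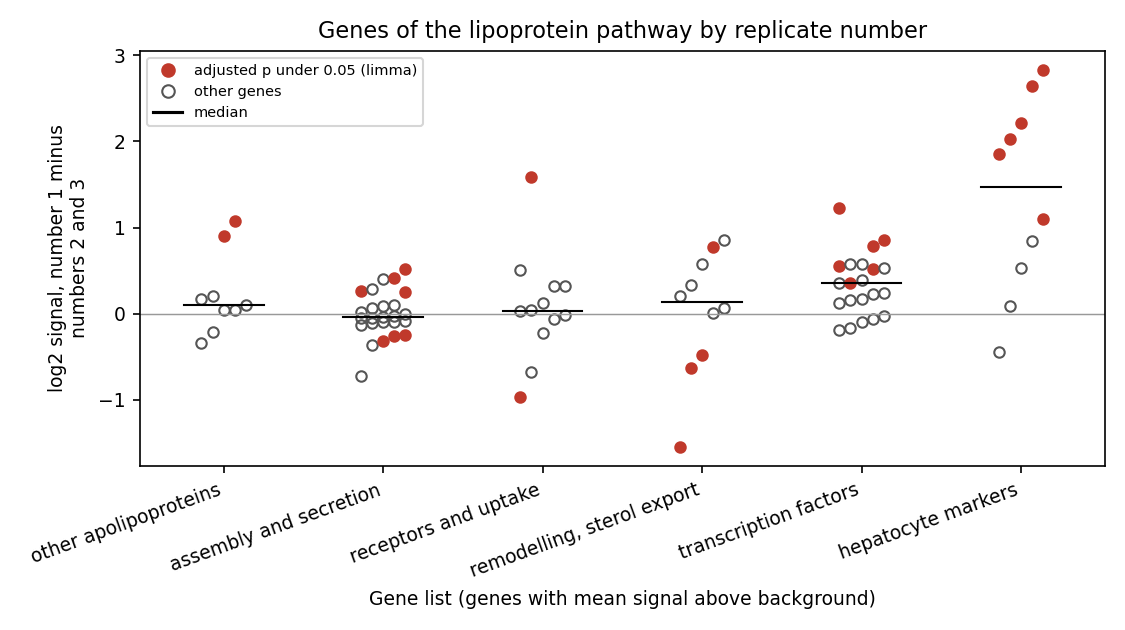
Log2 difference of the arrays numbered 1 from numbers 2 and 3 (y axis, from limma with condition in the model, 6 arrays) for genes above background in the 5 pathway lists and the hepatocyte markers (x axis). Filled red points have an adjusted p under 0.05 and lines are medians; the medians of the transcription factors (0.35) and of the hepatocyte markers (1.48) lie above 0, while SERPINA1, called at 2.92 with a mean just under background, is not drawn.

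Markers of hepatocytes moved with the same numbers. Of 14 genes 10 had a mean above background, and 7 were called higher on the arrays numbered 1 and 0 were called lower. Of all genes 4.64% were called higher, and 7.90% of genes above background. Without the trend in the prior variance limma called 0 probe sets of the array. The median log2 difference of the markers was 1.40. Their summed linear signal was 4930 to 5170 on the arrays numbered 1 and 1550 to 1590 on the others. TF (transferrin) differed by 2.83, FGB (fibrinogen β) by 2.65 and ALB (albumin) by 1.85. Not called were TTR (-0.44), HP (-0.082), RBP4 (0.089), CYP3A4 (0.53), CPS1 (0.56), TAT (0.85) and AHSG (1.70). ALB, a defining marker of hepatocytes, lay between 5.65 and 6.13 on arrays 2 and 3, around the background level, and at 7.75 and 7.83 on the arrays numbered 1. Of 9 markers of hepatic stellate cells or fibroblasts, COL1A1, DCN and LUM were above background, and POSTN itself was not, at 4.06. The sum of the 9 was 2970 to 3420 on the arrays numbered 1 and 3520 to 3850 on the others, and DCN was called lower (-1.0). LUM, the brightest, differed by 0.027. Of the 9, 4 were higher and 5 were lower there, with a median of -0.034. Of 6 macrophage markers 0 were above background, with sums of 152 to 218 and 166 to 205. Of 5 cholangiocyte markers 3 were above background (sums of 6630 to 6910 and 6700 to 7080) and SOX9 was called higher (1.78), while KRT7 (-0.12) and KRT19 (-0.095) were not called. Of 5 enterocyte markers only VIL1 was above background, and it was called higher (0.83, sums of 529 to 656 and 289 to 437). The other 4 enterocyte markers were lower on the arrays numbered 1, and the median difference of the 5 was -0.66. The part of any of these in the APOH, APOC1 and MTTP differences was not tested.

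The genes most like the members over the 6 arrays were sought among 10638 genes above background on all of them. The centred mean of the 4 members that met this rule (APOC1, APOE, APOH and APOM) was 0.46 on control 1 and 0.43 on POSTN 1, and from -0.35 to -0.019 on the others. Pearson correlations with it over 6 arrays were highest for FGFR3 (0.997), TIMP4 (0.996), EPB41L1 (0.995), KIDINS220 (0.993) and CNPY4 (0.993). Because this mean was highest on the arrays numbered 1, genes ranked by it are higher there by selection. The 4 members were not alike among themselves, since APOC1 correlated at 0.93 and APOH at 0.73 with the mean of the other 3, but APOE at 0.19 and APOM at -0.057. These correlations describe 6 arrays that fall into 2 clusters by number and carry no test.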

How the data were processed

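Log2 signals of 6 Affymetrix Human Genome U133 Plus 2.0 arrays (3 control, 3 POSTN, groups and numbers from the labels) were analysed. The authors processed the arrays with MAS 5.0, and the labels also name affy. No source used here gives their versions. The log2 values, as deposited, were checked to be MAS 5.0 signals scaled to a linear mean of 500 without the highest and lowest 2% of each array. MAS 5.0 subtracts local background and mismatch signal, which makes dim probe sets noisy on the log2 scale. The number of arrays limits the precision.

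After 62 Affymetrix controls were left out, 54613 probe sets were fitted in R 4.3.3 with limma 3.58.1 (lmFit, eBayes with trend, two-sided), with Benjamini-Hochberg adjustment over all of them, for POSTN minus control and, with condition as a covariate, for number 1 minus numbers 2 and 3. The study's methods name an unpaired t-test, which was run on the same values. Gene symbols were taken from GEO's annotation of the array. A gene's brightest probe set stands for it, 41091 probe sets carry 1 symbol, and each member is given with all of its probe sets. From each pathway list at most 3 called genes per direction are named, by size of difference and with the brighter arrays above background, and 5 genes by likeness. The members, the lists, the marker genes and the split of number 1 from 2 and 3 were chosen with earlier results of these data known. Genes without a probe set of their own in the tables were not analysed here, and some items are not reported here. The fits were tested on simulated data.

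Same-numbered control and POSTN arrays deviated together from their condition's mean above background (correlations of 0.53, 0.23 and 0.24 for numbers 1, 2 and 3), but less over all probe sets (0.088, 0.034 and 0.025). Above background, control 2 with POSTN 3 (0.20) and control 3 with POSTN 2 (0.15) were nearly as high. Only number 1 was therefore clearly paired, and numbers 2 and 3 were hardly told apart. The pairing comes from these values, not from the labels, and the replicate block is an alternative.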

Additional observations from a re-analysis of the deposited data

Results flagged for a closer look

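APOM is listed because the array numbered 1 differed from both other arrays in opposite directions in the 2 conditions. On 205682_x_at control 1 was 0.63 above the mean of control 2 and 3, and POSTN 1 was 0.55 below that of POSTN 2 and 3 (a log2 difference of -0.55). With 1 array against 2 in each condition, the difference between the conditions was not tested. The dimmer probe set, 214910_s_at, had its highest control signal on array 1 (6.59, against 5.67 and 6.43) and its lowest POSTN signal on array 1 (5.57, against 5.98 and 6.17). The pattern was not particular to APOM. APOC3 205820_s_at differed by 0.96 within control and -1.71 within POSTN arrays, with all its signals under background.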

How the results depend on the processing

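No member had an adjusted p under 0.05 for POSTN minus control in the main analysis or in the 14 to 16 alternatives per gene that gave an adjusted p. Of these, leaving out both arrays numbered 1 was chosen after seeing the data. The counts of called probe sets and pathway genes in this comparison stayed at 0 wherever they were computed. A replicate block left the called probe sets at 0, and 2601 had an unadjusted p under 0.05 in place of 1649. The alternatives follow each gene's brightest probe set, or the mean of its probe sets above background. On these, signs of the difference turned in some alternatives for APOA2, APOC1, APOH, APOM and MTTP and in none for APOA1, APOB, APOC3 and APOE. The signals of APOA1 and APOC3 were under background on all arrays. Other probe sets of APOE (203382_s_at, -1.32) and APOB (223579_s_at, 0.39) had the opposite sign to the brightest. By replicate number, APOC1 stayed between 0.78 and 0.84, APOH between 1.19 and 1.72, MTTP between 0.91 and 1.82 and APOB between -0.77 and -0.35, while APOM (-0.55 to 0.63) and APOC3 (-1.71 to 0.96) changed sign. The 3069 probe sets called between numbers became 1750 when names ending in _x_at or _s_at were left out and 0 without the trend in the prior variance, and ranged from 657 to 3073 when 1 array was left out. The pathway genes called higher (14) became 6 and 0 in these settings and 3 to 13 with 1 array left out. Those called lower (7) became 4 and 0, 4 after median centring, and 3 to 7 with 1 array left out. Leaving out 1 array numbered 1 leaves the other to stand alone and assumes that it varies like the rest. In the first of these settings most members have no value, since 14 of their 19 probe sets end so. Signals near background limit MTTP, APOB, APOE and APOM.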
